A study of Arabidopsis thaliana with 6 samples.

Results

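The genes described here encode ribosomal proteins and lie on the plastid genome of Arabidopsis thaliana. Probe sets of the Affymetrix ATH1 array, each a group of short probes that reads 1 transcript, were taken when they named a single gene that the RefSeq gene table (assembly TAIR10.1) places on the plastid chromosome under a symbol starting with rpl (large subunit) or rps (small subunit). This gave 15 probe sets for 15 genes, 7 rpl and 8 rps, among 22746 probe sets in all and 13286 genes with a single-gene probe set. For rpl2, rpl23, rps7 and rps12 the probe sets list 2 gene IDs and were left out by the rule. No measured value entered the choice.

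Whole 10-day-old seedlings of the Columbia background grew on filter paper wetted either with 1% DMSO (mock) or with 100 µM scutellarin, a flavone glucuronide, in 1% DMSO. Seeds spent 2 dark days at 4 °C before growth at 25 °C under a day of 12 h light, and exposure lasted 10 days. Each group held 3 arrays from independent experiments, with RNA from 100 seedlings per array. The values are deposited intensities on a linear scale.

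Plastids translate their own messages on bacterial-type ribosomes, whose proteins come partly from the plastid genome and partly from nuclear genes. The plastid genes lie singly or in clusters that resemble bacterial operons, and many are transcribed together with their neighbours. The longest cluster includes rpl23, rpl2, rps19, rpl22, rps3, rpl16, rpl14 and rpl36, in that order. Transcription of the plastid genome is shared by a bacterial-type polymerase, whose core the plastid rpo genes encode, and phage-type polymerases from the nucleus. Plastid messages mostly lack the long poly(A) tails of nuclear ones. The primer used to start cDNA synthesis is not given in the sources used here, so an intensity is read below only as array signal, and only within a gene.

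Scutellarin replicate 1 stood apart for these genes, as for most other plastid-encoded genes, and is given separately throughout. It was the lowest of the 6 arrays for 14 of 15 genes, the exception being rpl22. The same array was lowest for 48 of the 52 other plastid-encoded genes tested (92.3%) and for 19.0% of all 15923 probe sets tested. The mean log2 intensity of the 15 genes was 10.48, 10.08 and 9.94 in the 3 mock arrays. It was 7.84 in scutellarin replicate 1, 9.88 in replicate 2 and 9.03 in replicate 3. Median intensities over all probe sets lay between 144.8 and 162.3, with 145.9 in scutellarin replicate 1. The deposited values had been scaled to a common level, so these medians cannot show whether the arrays differed as a whole. Of the fixed green tissue markers none had a probe set named here. Of 8 root markers, 3 were measured. PYK10, a beta-glucosidase gene, rose by 0.99 ± 0.13 on the log2 scale (adjusted p = 0.000230), and 1644 of all 15923 probe sets tested rose. The root hair expansin genes EXPA7 and EXPA18 were higher in scutellarin, by 5.27 ± 0.72 and 4.82 ± 0.40. Mock values were very low for EXPA7 (1.81, 7.21 and 22.0) and EXPA18 (14.7, 30.7 and 8.89). Both passed the intensity filter described below only through their scutellarin arrays, so no test is given for them. The sizes of their changes rest on mock values near background. The summed intensity of the 3 markers, nearly all of it from PYK10, was 5380 to 6049 in mock and 10314 to 13202 in scutellarin arrays. Their part in the results below was not tested. In RNA from whole seedlings, fewer green cells or plastids and less RNA in each cannot be told apart.

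Under scutellarin, all 15 genes had lower mean log2 intensity, 10 of them fell and none rose. The 10 were rps16, rps2, rps4 and rpl20 and all 6 measured genes of the long cluster, namely rpl36, rpl14, rpl16, rps3, rpl22 and rps19. Falls were called for 9.11% of all probe sets, and changes in either direction for 19.4%. A fall means an adjusted p under 0.05 in limma, fitted over all 15923 probe sets kept by a filter that removed the lowest 30%. All 15 genes passed that filter. The median log2 change of the 15 was -1.18, against -0.04 for all probe sets tested. An unadjusted p under 0.05 was found for 12 of 15, and for 33.1% of all probe sets tested. All scutellarin arrays lay below all mock arrays for 6 of the 15 genes (rps16, rps2, rps4, rpl20, rpl16 and rps19), while 18.6% of all probe sets did so. This was not particular to the 15. It held for 25 of the 52 other plastid-encoded genes (48.1%) and 7 of 9 nuclear genes of plastid ribosomal proteins.

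Among the small subunit genes outside the long cluster, rps16 had the tightest mock values. It was read at 212, 210.4 and 218 in the mock arrays, listed here and below in the order of replicates 1 to 3, and at 57.5, 148 and 98.7 in the scutellarin arrays. The groups did not overlap, and rps16 fell by 1.18 ± 0.30 on the log2 scale (SE, n = 3 per group, adjusted p = 0.0172), to 44.2% of mock. Without scutellarin replicate 1 the change was -0.82 ± 0.24 (adjusted p = 0.0388).

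The gene rps2 lies between the ATP synthase gene atpI and the polymerase gene rpoC2. It was read at 679, 794 and 589 in mock and at 176, 507 and 319 in scutellarin. No scutellarin value reached the mock range, and rps2 fell by 1.16 ± 0.30 (adjusted p = 0.0172), or -0.76 ± 0.22 without scutellarin replicate 1 (adjusted p = 0.0336). Its neighbour rpoC2 fell by 1.02 ± 0.30 (adjusted p = 0.0301), and atpI had a log2 change of -1.01 ± 0.53 (adjusted p = 0.209).

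The protein of rps4 starts the assembly of the small subunit in bacteria by binding its ribosomal RNA. Its intensity was 16368, 15532 and 19109 in mock and 7274, 12699 and 12940 in scutellarin. Scutellarin replicates 2 and 3 were close to each other and below every mock array. The gene fell by 0.67 ± 0.19 on the log2 scale (adjusted p = 0.0285), the least among the called genes, with a log2 change of -0.40 ± 0.12 without scutellarin replicate 1 (adjusted p = 0.0405).

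The remaining 3 small subunit genes outside the cluster were not called. The intensity of rps14, which lies next to the photosystem I gene psaB, was 57.3, 83.2 and 47.8 in mock and 20.8, 76.0 and 44.7 in scutellarin. Its groups overlapped, and the log2 change was -0.56 ± 0.49 (adjusted p = 0.458). For rps15 the values were 385, 257 and 298 in mock and 70.7, 268 and 200.0 in scutellarin, a log2 change of -0.99 ± 0.39 (adjusted p = 0.0957).

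The clearest case of a difference carried by 1 array was rps18, whose protein sits on the platform of the small subunit. It was read at 2288, 3045 and 2514 in mock, 423 in scutellarin replicate 1, and 2348 and 2752 in replicates 2 and 3. The last 2 lay within the mock range. Its log2 change was -0.89 ± 0.51 (adjusted p = 0.253) and -0.03 ± 0.15 without scutellarin replicate 1 (adjusted p = 0.916).

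Outside the cluster, 3 large subunit genes were measured. For rpl20, whose protein acts early in large subunit assembly in bacteria, the intensity was 1012, 1072 and 891 in mock and 236, 679 and 624 in scutellarin. The groups did not overlap, and rpl20 fell by 1.09 ± 0.31 (adjusted p = 0.0288), or -0.60 ± 0.15 without scutellarin replicate 1 (adjusted p = 0.0189).

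The gene rpl33 encodes a small protein that tobacco can do without except in the cold. It was read at 8570, 6934 and 5288 in mock and at 957, 6980 and 3181 in scutellarin. Scutellarin replicate 2 lay inside the mock range, and the log2 change of -1.30 ± 0.50 was not called (adjusted p = 0.0925). It was -0.53 ± 0.28 without scutellarin replicate 1 (adjusted p = 0.233).

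The third, rpl32, is essential in tobacco. It stood at 5484, 6124 and 5397 in mock, at 1369 in scutellarin replicate 1, and at 5197 and 5584 in replicates 2 and 3. As with rps18, only scutellarin replicate 1 was far from the mock values. The log2 change was -0.73 ± 0.39 (adjusted p = 0.223) and -0.07 ± 0.12 without that array (adjusted p = 0.731).

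**Figure D1:**
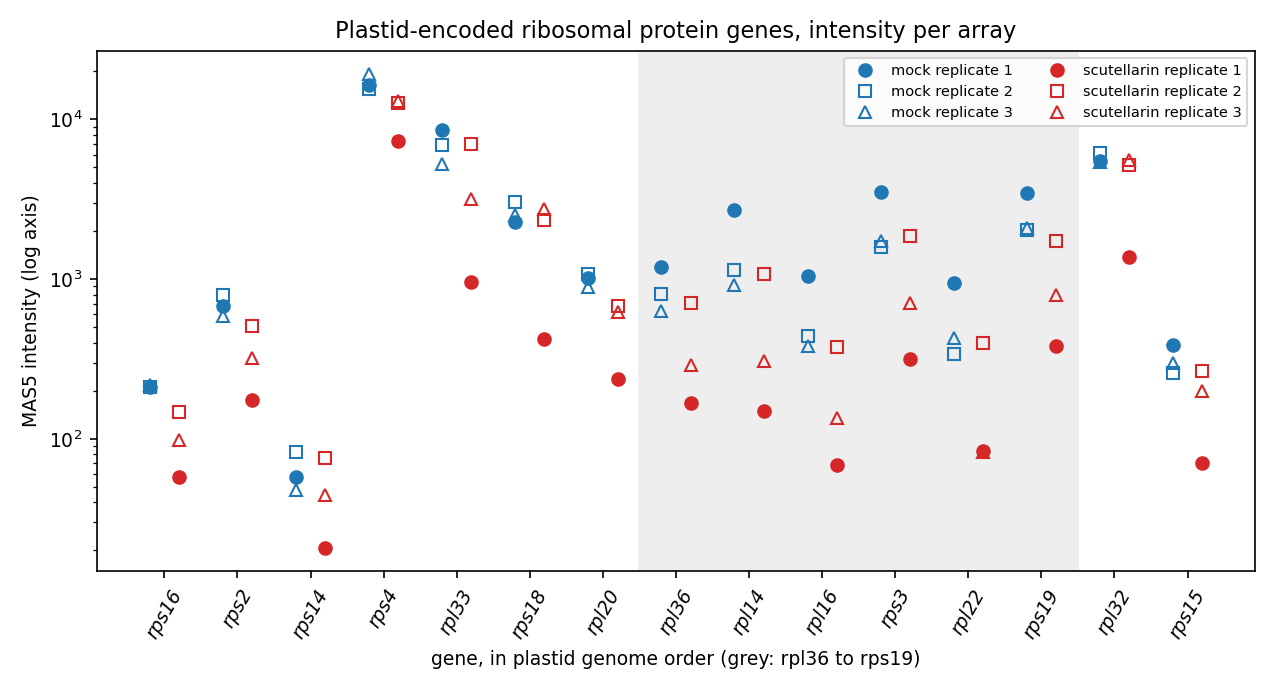
Intensity (log axis) of the 15 genes in plastid genome order, with 3 mock arrays in blue and 3 scutellarin arrays in red, filled for replicate 1 and open for replicates 2 and 3. Scutellarin replicate 1 is the lowest point for 14 genes, and mock replicate 1 is the highest for all 6 genes in the grey band. Levels of different genes come from different probes and are not comparable.

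The 6 measured genes of the long cluster had the largest log2 changes of the 15, between -1.95 and -1.38, against -1.30 to -0.56 for the other 9. Their median was -1.74, and that of the other 9 was -0.99, a difference of -0.75. Their SEs were 0.41 to 0.57, against 0.19 to 0.51 for the other 9. Neighbouring genes can share transcripts, so the 6 cannot be counted as separate readings. Whether they share transcripts here was not tested.

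The protein of rpl14 lies at the face of the large subunit that meets the small one. Its intensity was 2704, 1141 and 921 in mock and 149, 1082 and 306 in scutellarin. Scutellarin replicate 2 lay between mock replicates 2 and 3, so the groups overlapped. The gene fell by 1.95 ± 0.57 on the log2 scale (adjusted p = 0.0310), to 25.9% of mock.

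The gene rpl16, whose protein lies near the aminoacyl-tRNA site, was read at 1039, 438 and 381 in mock and at 68.5, 378 and 135 in scutellarin. The groups did not overlap, but scutellarin replicate 2 and mock replicate 3 were 378 and 381. It fell by 1.88 ± 0.51 (adjusted p = 0.0227).

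The protein of rpl22 lines the tunnel through which the new peptide leaves the ribosome. Its intensity was 946, 338 and 427 in mock and 83.8, 397 and 82.5 in scutellarin. Here scutellarin replicates 1 and 3 were alike and replicate 2 lay inside the mock range. It fell by 1.88 ± 0.53 on the log2 scale (adjusted p = 0.0265).

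The protein of rps3 helps to form the entry channel for the message. Its values were 3512, 1585 and 1727 in mock and 316, 1868 and 703 in scutellarin, so replicate 2 was above 2 mock arrays. It fell by 1.51 ± 0.49 (adjusted p = 0.0485), close to the threshold. The gene rps19, for a protein of the small subunit head, was read at 3436, 2033 and 2091 in mock and at 378, 1742 and 799 in scutellarin. It did not overlap between groups and fell by 1.60 ± 0.41 (adjusted p = 0.0169).

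The last of the 6 is rpl36, which encodes one of the smallest ribosomal proteins. It was read at 1195, 806 and 629 in mock and at 167, 710.1 and 291 in scutellarin. Scutellarin replicate 2 again lay among the mock arrays, and rpl36 fell by 1.38 ± 0.41 (adjusted p = 0.0325).

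Along the plastid genome, each scutellarin array had its own profile. Scutellarin replicate 1 was below the mock mean for all 15 genes, by log2 differences of -3.25 (rpl14) to -1.22 (rps4), with a median of -2.34. It was also low at the other plastid-encoded genes tested, where the median over 52 was -1.24. The median over all probe sets was -0.04. Scutellarin replicate 2 lay nearer to mock than replicate 1, between -0.56 (rpl16) and 0.32 (rps14), with a median of -0.38. It was below every mock array for 7 of the 15 genes, 33 of the 52 other plastid-encoded genes and 31.9% of all probe sets. It showed no step at the cluster, whose median was -0.38, against -0.21 for the other 9 genes.

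Scutellarin replicate 3 had a step instead. Its median log2 difference from mock was -1.83 at the 6 cluster genes, -0.63 at the other 9 ribosomal protein genes and -0.32 at the 52 other plastid-encoded genes. The cluster values ran from -2.64 (rpl22) to -1.54 (rpl36). The next gene with a probe set used here beyond rpl36, the polymerase gene rpoA, stood at -0.51 in this array, and no gene on the rpl23 side could be set beside it, because the probe sets there list 2 gene IDs. Among the ribosomal protein genes outside the cluster, rps16, rps2 and rpl33 were lowest, at -1.11, -1.10 and -1.10, while rps18 and rpl32 were at 0.08 and -0.02. Of the other plastid-encoded genes, ycf3 was lower than these, at -1.44.

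**Figure D2:**
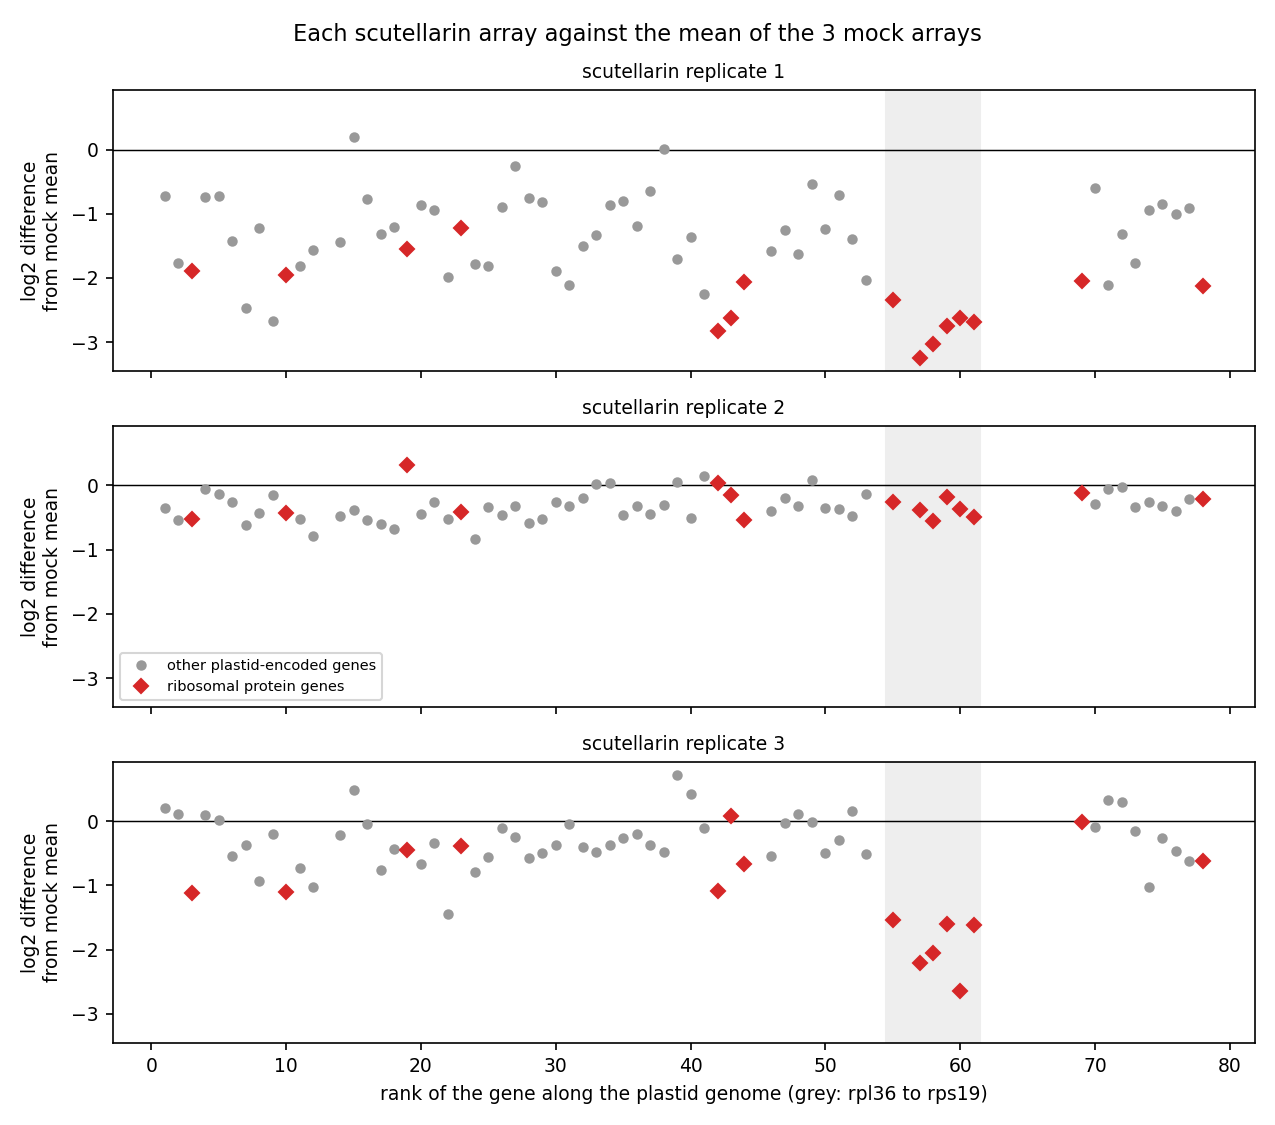
Log2 difference of each scutellarin array from the mean of 3 mock arrays (vertical axis) against the rank of the gene along the plastid genome (horizontal axis), for 15 ribosomal protein genes in red and 52 other plastid-encoded genes in grey. Scutellarin replicate 1 is low almost everywhere, and replicate 2 is less low, with medians of -0.38 (15 genes) and -0.34 (52 others). In replicate 3 the 6 genes of the grey band stand at -2.64 to -1.54. The mock mean in the band is raised by mock replicate 1.

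The cluster also set mock replicate 1 apart from the other mock arrays. Mock replicate 1 was the highest mock array for all 6 cluster genes, by log2 0.74 (rps19) to 1.40 (rpl14) over the mean of replicates 2 and 3. For the other 9 genes that difference ran from -0.27 to 0.50, with a median of -0.01, and for the 52 other plastid-encoded genes the median was -0.16. Within the scutellarin group, replicate 3 was below replicate 2 by log2 -2.27 (rpl22) to -1.12 (rps19) in the cluster. The other 9 genes ran from -1.13 (rpl33) to 0.23 (rps18).

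A difference at least as high in mock replicate 1 as the lowest cluster value was seen at 5.06% of all probe sets tested. One at least as low in scutellarin replicate 3 as the highest cluster value was seen at 1.65%, and both together at 0.465% (74 probe sets). None of the 9 ribosomal protein genes outside the cluster and none of the 52 other plastid-encoded genes had both. These limits were read from the cluster itself and describe it. The nearest outside it was rpl33, with 0.50 in mock replicate 1 and -1.13 in scutellarin replicate 3.

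**Figure D3:**
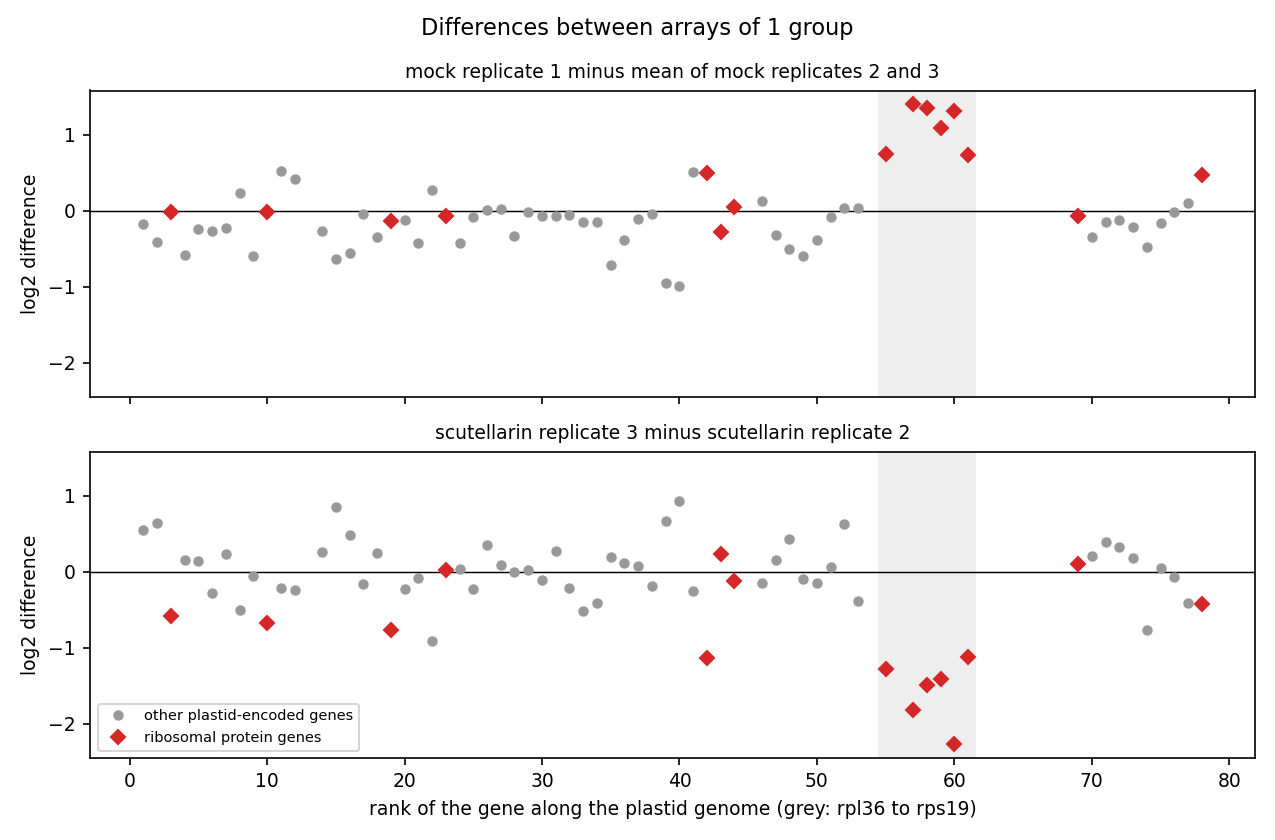
Log2 difference between arrays of the same group (vertical axes) against gene rank along the plastid genome (horizontal axis), with mock replicate 1 against the mean of mock replicates 2 and 3 above, and scutellarin replicate 3 against replicate 2 below. The 6 cluster genes in the grey band stand at 0.74 to 1.40 above and at -2.27 to -1.12 below, outside the range of the other plastid-encoded genes in grey.

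Scutellarin replicate 1 was lower than the mean of replicates 2 and 3 for all 15 genes, by log2 -2.59 (rps18) to -0.82 (rps4), with a median of -1.64. That median was -0.79 over the 52 other plastid-encoded genes and -0.02 over all probe sets, of which 3.60% were at or below -0.82. In this measure the cluster's median was -1.68 and that of the other 9 genes -1.49. The neighbours psaJ (photosystem I), rpl33 and rps18 were low, at -2.27, -2.30 and -2.59, and the next gene, rpl20, was at -1.46. Such values were not limited to this stretch: atpI, beside rps2, was at -2.49. At rpl32 the difference was -1.98, at its neighbour ccsA -0.41, and at the gene after ccsA, ndhD, -2.24.

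Without scutellarin replicate 1, the median log2 change of the 15 genes was -0.76, all 15 stayed negative, and 5 fell: rps16, rps2, rps4, rpl20 and rps19. Falls were called for 8.14% of all probe sets in that fit. The changes of rps14, rps18 and rpl32 were then between -0.07 and -0.03. The 6 cluster genes changed by -1.51 to -0.89, still the 6 lowest values, and all but rps19 were not called (adjusted p = 0.0723 to 0.146). The cluster median minus that of the other 9 was -0.76, as with all arrays (-0.75). Scutellarin replicates 2 and 3 lay below all mock arrays for the same 6 genes as above, where 23.9% of all probe sets did so. That was also seen for 26 of the 52 other plastid-encoded genes and 8 of 9 nuclear genes of plastid ribosomal proteins.

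**Figure D4:**
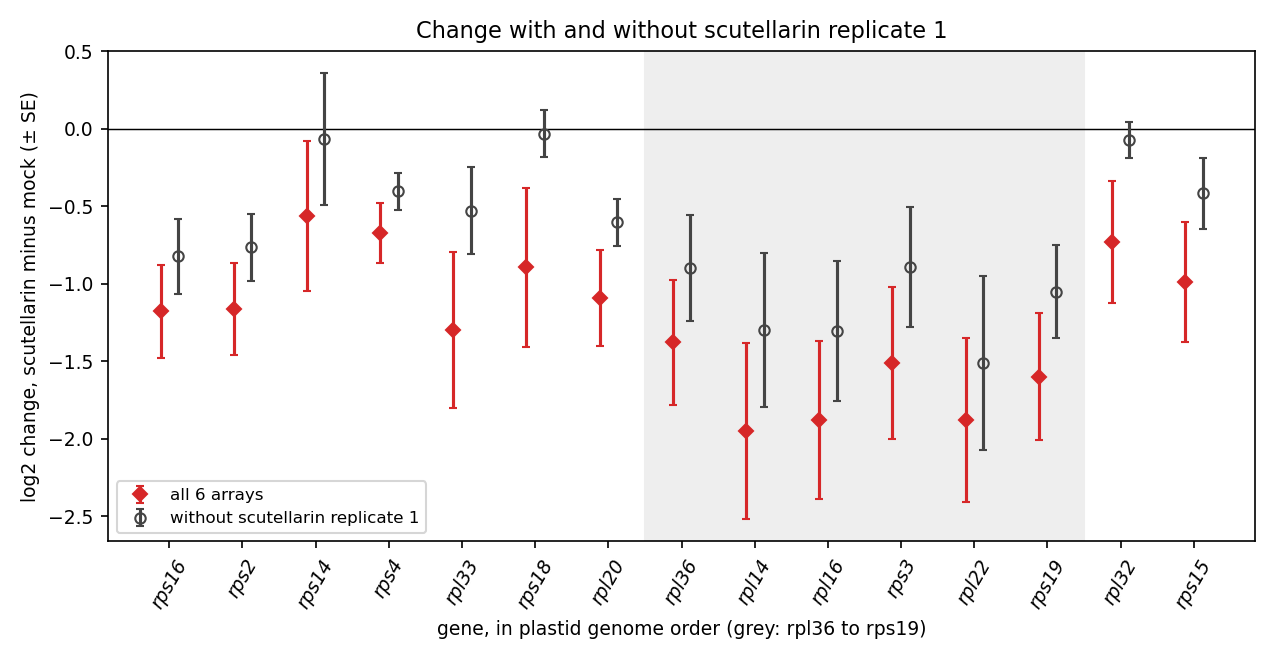
Log2 change, scutellarin minus mock, with its SE (vertical axis) for the 15 genes in plastid genome order, with all 6 arrays (red) and without scutellarin replicate 1 (open grey circles). The 6 genes of the grey band stay lowest in both, at -1.95 to -1.38 and at -1.51 to -0.89, while rps14, rps18 and rpl32 move to between -0.07 and -0.03.

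The calls depended on single arrays and on the variance model. Without mock replicate 1, 2 or 3, the number of genes that fell was 3, 3 and 6 (background 6.71%, 5.04% and 5.87% of all probe sets). Without scutellarin replicate 2 it was 12, with rpl33 and rps15 added (9.02%), and without scutellarin replicate 3 it was 5 (5.92%). With both arrays numbered 1 left out, a setting chosen after seeing the data, rps2, rps4, rpl20 and rps19 fell (7.91%) and the cluster minus the others was -0.46. With no filter 6 fell (5.32%), and with a robust variance prior 3 fell, rps16, rps2 and rps4 (9.20%). With no variance trend limma called 0 of 15 (5.41%), although 10 had an unadjusted p under 0.05. The share of all probe sets under that unadjusted limit was not counted in that fit.

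Other plastid-encoded genes had a smaller median change. Of the 52 tested, 17 fell and none rose, where 9.11% of all probe sets fell. Their median log2 change was -0.61, and 1 of them, ycf3, had a change as low as the median of the 15 (-1.32 ± 0.29, adjusted p = 0.00810). Of 33 photosynthesis genes 10 fell (median -0.51), with the largest called change at psbC, for a photosystem II antenna protein (-0.89 ± 0.16, adjusted p = 0.00225). In the NDH complex, which carries electrons around photosystem I, 3 of 9 genes fell (median -0.62), the largest called change being that of ndhJ (-1.14 ± 0.24, adjusted p = 0.00630). Of 3 polymerase genes 2 fell (median -1.02), and rpoC1 fell by 1.13 ± 0.19 (adjusted p = 0.00164). Without scutellarin replicate 1, 12 of the 52 fell, where 8.14% of all probe sets did, and their median was -0.30. In that fit 7 photosynthesis genes fell (median -0.28), 2 NDH genes (median -0.41) and 1 polymerase gene, rpoC1 (median -0.62). The difference between the 15 genes and these classes was not tested, since the genes share arrays and transcripts.

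Set against the median of the 54 other plastid-encoded genes on the same array, the 15 genes split in their mean change. All 6 cluster genes kept a lower mean in scutellarin, by log2 -1.03 (rpl14) to -0.46 (rpl36). The other 9 ran from -0.37 (rpl33) to 0.36 (rps14), with rps4, rpl32 and rps18 also above 0. By array, the relative difference of the cluster genes from mock was -1.74 to -0.83 in scutellarin replicate 1 and -1.95 to -0.85 in replicate 3. The other 9 ran from -1.31 (rpl33) to 0.30 (rps4) in replicate 1, with rps18 at -1.10, so that array did not separate them from the cluster. In replicate 3 they ran from -0.43 (rps16) to 0.77 (rps18), all above the cluster. In scutellarin replicate 2 the relative difference was at or above 0 for all 15 genes, and the cluster stood between 0.00 and 0.38.

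Nuclear genes supply the rest of the plastid ribosome. Of 40 such genes listed, 9 had a probe set named here, 4 fell and none rose, where 9.11% of all probe sets fell. Their median log2 change was -0.32. The lowest was AT4G01310, for a large subunit protein, which fell by 0.60 ± 0.15 (adjusted p = 0.0169). Scutellarin replicate 1 was not low for these genes: its median difference from replicates 2 and 3 was 0.07. It was the lowest array for 1 of 9, and for 19.0% of all probe sets. Without that array 4 fell, where 8.14% of all probe sets did, and the median was -0.43. Of the first 4, AT4G17560 was no longer called (adjusted p = 0.0730), and AT3G13120 was called instead (adjusted p = 0.0359). No mitochondrially encoded ribosomal protein gene had a single-gene probe set, and of 8 nuclear genes of plastid transcription 1 had, below the filter.

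**Figure D5:**
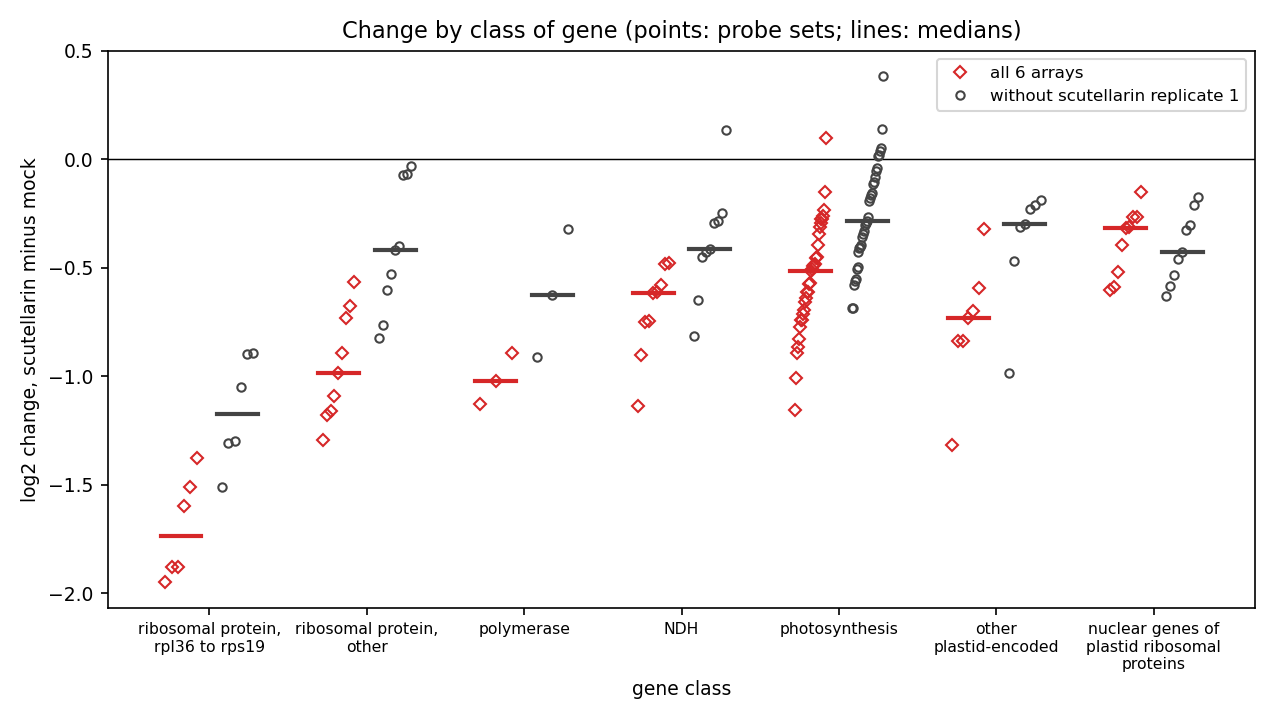
Log2 change, scutellarin minus mock (vertical axis), by class of gene (horizontal axis), each point 1 probe set and each line a median, with all arrays (red) and without scutellarin replicate 1 (grey). Medians without that array are nearer 0 in every plastid-encoded class and not for nuclear genes of plastid ribosomal proteins, at -0.32 and -0.43.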

How the data were processed

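Transcript levels were measured on 6 ATH1 arrays, 3 mock and 3 scutellarin, grouped by their titles. The deposited values are linear intensities, made per probe set with MAS5 per the submitters' processing notes; its version, its settings and the genome build were not given in the sources used here. Trimmed by 2% at each end, the array means were 493.9 to 495.1, so the authors had scaled them, and no normalization was added. Detection calls were not used here. Gene order came from TAIR10.1. Coordinates are left out because the array's build is not named.

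Values were log2-transformed and the lowest 30% of probe sets by mean log2 left out. Groups were compared with limma 3.58.1 in R 4.3.3 (lmFit, then eBayes using a variance trend). Tests were two-sided, and p-values were adjusted by Benjamini-Hochberg over 15923 probe sets. The fit was tested on simulated data. The number of arrays limits precision. Deviations of same-numbered arrays from their group means correlated at -0.04, -0.09 and 0.11, which showed no pairing by number but cannot exclude it. The main fit used no block. Members, lists and tests were chosen with earlier results of these data known. Every member is named. From other lists the called gene with the largest change is named, and neighbours of members from the plastid. The genes ycf3, ndhD, EXPA18, PYK10, AT4G17560 and AT3G13120 were named after their values were seen. The alternatives changed the normalization (quantile, median centring), the filter (none, 50%), the log (32 added), the variance model (no trend, robust prior), the block (replicate number) and the arrays used. Control probe sets for RNA quality were not analysed here. Figures were drawn with matplotlib 3.10.9.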

Additional observations from a re-analysis of the deposited data

How the results depend on the processing

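All log2 changes were negative under every alternative run; rps14 and rps16 lay below the 50% filter and had no value there. The number of the 15 genes that fell was 10, and 9 after quantile normalization, 9 of the 13 tested with the lowest 50% left out, 10 with median centring and 10 with 32 added before log2. Over all probe sets, 3251, 2647, 3046 and 3262 changed in either direction in these fits, in the same order. The share of all probe sets that fell was not counted there or under the replicate block. The number of the 15 genes that fell was 6 with no filter, 0 with no variance trend in limma (10 at an unadjusted p under 0.05), 3 with a robust variance prior, and 4 without both arrays numbered 1, an alternative chosen after seeing the data. The cause was not tested. Leaving out 1 array gave 3 (mock replicate 1 or 2) to 12 (scutellarin replicate 2), and over all probe sets 2009 (mock replicate 2) to 2833 changed instead of 3094. Under the replicate block 9 fell and 2923 probe sets changed, with only rps3 lost (adjusted p = 0.0510); mock replicate 1 correlated better with scutellarin replicate 2 (0.24) than with its own number. The median log2 change of the 15 was -1.53 to -0.76 without 1 array, and the cluster minus the others -0.99 to -0.35, the latter without scutellarin replicate 3 and -0.41 without mock replicate 1. Most often called was rps2, under 13 of 15 alternatives (adjusted p = 0.00137 to 0.0770), then rps19 under 12 (0.000444 to 0.139). Without detection calls, low intensities such as those of rps14 cannot be separated from background.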
